A study of Mus musculus with 12 samples.

Results

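LY6D+ luminal cells of the mouse prostate were compared with LY6D+ basal cells, on the 4 arrays that the labels assign to these groups out of 12 in the series. All animals were wild-type, hormone-naïve males, whose age the labels do not give. Cells of both groups were sorted as negative for CD45, CD31 and Ter119 and positive for LY6D. The luminal gate took cells low for Sca1 and CD49f, and its 2 libraries came from mice 4 and 5. The basal gate took CD49f-positive cells of intermediate Sca1, and its 2 libraries came from mice 3 and 5. Mouse 5 therefore gave a library to both groups, which are not independent, and the labels do not say whether cells were pooled or how many were sorted. Values are log2 signals per gene, so that a difference of 1 is a doubling. Differences are luminal minus basal, with their standard error (SE) from limma.

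The prostate epithelium has an inner layer of secretory luminal cells and an outer layer of basal cells, which sit on the basement membrane through laminins, integrins and hemidesmosomes. Luminal cells make most of the proteins of the prostatic fluid. LY6D is a small surface protein tethered by a lipid anchor, and is found on some cells of both layers. Setting LY6D+ cells of the layers side by side asks what distinguishes them when the sort marker is shared.

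The arrays had like distributions, with medians between 3.79 and 3.93. Signals over the lower quartile of the table (2.96) were read for 18086 genes in basal cells of mouse 5 and for 18604 to 18895 in each of the other libraries. Across 19012 genes the luminal libraries correlated at a Pearson r of 0.898 and the basal libraries at 0.898, while pairs across the groups lay between 0.843 and 0.859. The lowest of these was the pair from mouse 5. These correlations run across genes, which do not replicate each other.

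Genes of the proteins used for sorting come first. Ly6d was at 4.81 and 5.20 in luminal cells of mice 4 and 5, and at 5.93 and 5.96 in basal cells of mice 3 and 5. Both luminal libraries, although sorted as LY6D+, thus lay below both basal ones, by 0.94 ± 0.26 (adjusted p = 0.355, limma). Itga6, which encodes CD49f, was at 6.77 and 7.01 in luminal and 8.22 and 9.15 in basal cells, on the side that the gates would set (-1.79 ± 0.38, adjusted p = 0.228). Ptprc, which encodes CD45, was at 4.04 and 6.91 in luminal and 3.25 and 3.42 in basal cells. Its signal was thus high in luminal cells of mouse 5 alone. Pecam1, which encodes CD31, was at 4.43 and 5.73 in luminal and 7.18 and 5.70 in basal cells, so that the groups overlapped. Ly6a, which encodes Sca1, was not analysed here.

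No gene passed an adjusted p of 0.05. The count was 0 of 19012 with limma (0% of genes), and the smallest adjusted p was 0.0662. At an unadjusted p under 0.05 there were 1673 genes (8.8%), of which 613 were higher in luminal (3.22%) and 1060 higher in basal cells (5.58%). With 2 arrays against 2 an exact permutation test of a single gene cannot give a two-sided p below 0.333, so no such test is given. Genes are therefore described by their separation: a gene is called separated where the nearest libraries of the groups lie at least 1 log2 unit apart. Separated in this sense were 194 genes higher in luminal cells (1.02% of genes tested) and 374 higher in basal cells (1.97%). Of these, 12 of the 194 and 3 of the 374 had both libraries of the lower group under the lower quartile. Separation is a description of these 4 libraries and not a test. By group mean alone, 10229 of the 19012 genes lay on the luminal side and 8783 on the basal side. Side counts of the lists below stand beside these shares.

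The comparison can be made once within mouse 5 and once between luminal cells of mouse 4 and basal cells of mouse 3, with no library in common. Over all genes the paired values correlated at an r of 0.330. Of 862 genes that differed by at least 2 log2 units within mouse 5, 647 had the same sign in the other pair, and 377 differed there by at least 1 the same way. The share of all genes with the same sign in both pairs was not counted, so these numbers have no background beside them.

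**Figure D1:**
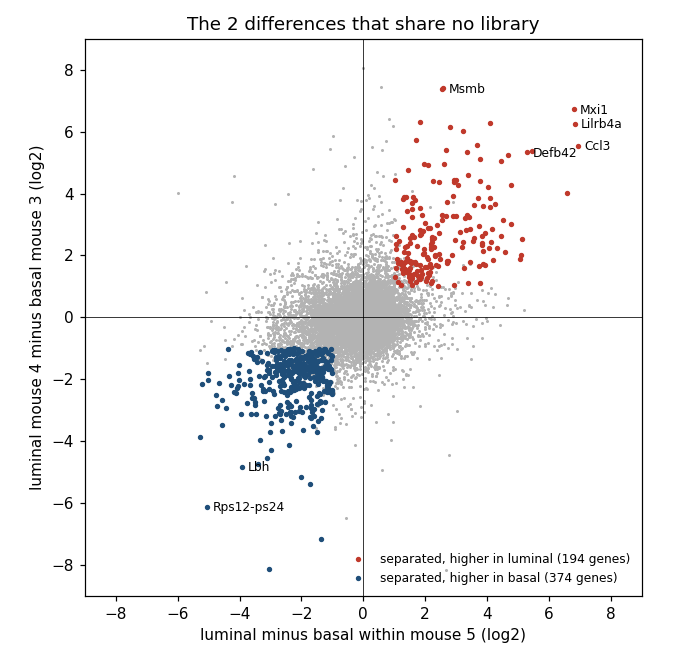
Each point is 1 of 19012 genes, placed by its luminal minus basal difference within mouse 5 (x axis, log2) and by luminal cells of mouse 4 minus basal cells of mouse 3 (y axis, log2). Red marks the 194 genes separated and higher in luminal, blue the 374 higher in basal cells. Mxi1, Lilrb4a and Ccl3 lie far out on the luminal side of both axes, while Msmb differs far more between mice 4 and 3 than within mouse 5.

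Macrophage and inflammatory genes made up 10 of the 12 genes with the smallest p on the luminal side. Lilrb4a, an inhibitory receptor of myeloid cells, was at 9.61 and 9.54 in luminal libraries and at 3.34 and 2.71 in basal libraries (6.55 ± 0.30, adjusted p = 0.0662, limma). Il1b, the inflammatory cytokine interleukin-1 beta, was at 9.29 and 9.11 against 4.05 and 4.45. The interferon-inducible DNA sensor gene Ifi204 was at 7.34 and 7.12 against 2.28 and 2.68, which puts both basal values under the lower quartile. The chemokines Ccl4 and Ccl3, which draw monocytes and T cells, differed by 5.41 ± 0.34 and 6.25 ± 0.43 (adjusted p = 0.0753 for each). Cd68, a lysosomal protein abundant in macrophages, was at 10.48 in both luminal libraries and at 6.87 and 6.61 in basal ones. Also on this side were the co-stimulatory molecule Cd86 (3.84 ± 0.29), the leukocyte tetraspanin Cd53 (3.97 ± 0.31), Spic, a transcription factor of red pulp macrophages (3.61 ± 0.28), and Adgre1, a surface antigen of macrophages (3.96 ± 0.35). Their adjusted p lay between 0.0858 and 0.0872.

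Among the 12 luminal genes with the smallest p, only Mxi1 and Pate14 are not usually counted as immune genes. Mxi1, a MAX partner that opposes MYC, was at 11.84 and 10.92 in luminal and at 5.11 and 4.11 in basal cells. This was the largest difference of the 12, at 6.77 ± 0.48 (adjusted p = 0.0771), and was alike within mouse 5 (6.81) and between mice 4 and 3 (6.73). A second, dimmer Mxi1 probe set gave a difference of 1.98 in the same direction. Pate14, a small secreted protein of the male tract, was at 10.83 and 10.36 against 6.40 and 6.57 (4.10 ± 0.28).

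**Figure D2:**
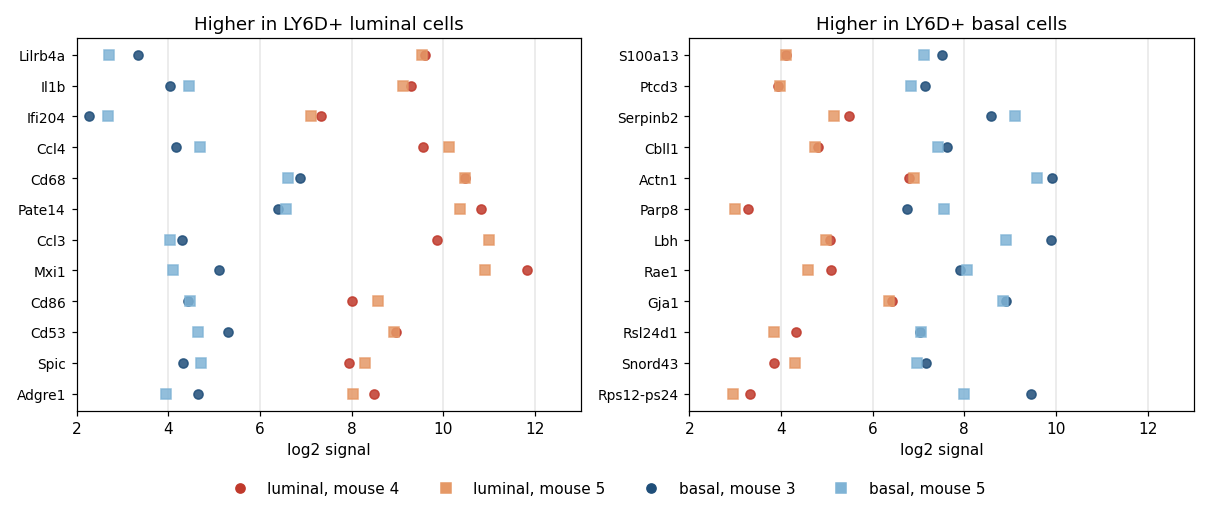
Log2 signal (x axis) of the 12 genes with the smallest p in each direction (rows) in each of the 4 libraries: red and orange for luminal, dark and light blue for basal cells, circles for mouse 4 or 3 and squares for mouse 5. Rows were picked from genes whose groups do not overlap, so none can overlap here. Such genes made up 20.5% of 19012 (higher in luminal) and 17.2% (higher in basal cells). The closest groups shown are those of Gja1, at 6.41 and 6.37 against 8.91 and 8.84.

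On the myeloid list 22 of 22 members had the higher group mean in luminal cells, with differences from 0.01 for Cd163 to 3.96 for Adgre1 and a median of 1.40 against 0.03 for all genes tested, and 9 were separated. The mean signal of the list was 6.15 and 6.64 in luminal libraries and 4.71 and 4.77 in basal libraries. Fcer1g, the signalling chain of activating Fc receptors, was at 8.24 and 8.99 against 5.40 and 5.53. Cd14, a co-receptor for bacterial lipopolysaccharide, was at 7.72 and 10.09 against 4.85 and 5.92. Some macrophage genes overlapped between the groups: Itgax (CD11c) was at 3.33 and 3.37 against 3.50 and 3.11, and Cd163 at 3.50 and 3.76 against 3.75 and 3.48, both named after their values were seen. No member fell under the lower quartile in both libraries of a group. The cells were sorted as CD45-negative, and fewer cells of a type cannot be told apart from less RNA per cell. The part that these markers have in other luminal differences was not tested.

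Cytokine and class II genes lay on the same side as the myeloid list. Of 24 chemokine and cytokine genes, 16 were on the luminal side and 9 were separated, none of them higher in basal cells (median 1.21, and 0.61 without the basal library of mouse 5). Ccl5 was at 10.46 and 10.40 in luminal and at 5.85 and 7.02 in basal cells. Of 15 antigen presentation genes, 12 were on the luminal side and 4 separated, namely Cd86 and the class II chains H2-Aa, H2-Eb1 and H2-Ab1. H2-Aa was at 8.97 and 9.77 in luminal against 6.14 and 6.45 in basal cells (3.07 ± 0.35, adjusted p = 0.0989). The list median was 0.47. The interferon response list had 16 of 18 members on the luminal side, but a median of only 0.30, which was 0.10 without the luminal library of mouse 5. Its separated members were Oasl1 and the RNA sensor gene Ifih1 (1.81 ± 0.36). Oasl1 was at 5.91 and 7.90 against 4.80 and 4.51, a difference of 2.25 ± 0.68 that was 1.26 without the luminal library of mouse 5. The lymphoid list had a median of 0.02, with the interleukin-7 receptor Il7r as its only separated member (6.46 and 5.52 against 3.53 and 4.23).

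Prostate secretory protein genes were on the luminal side in 16 of 17 cases, with the largest median of the 31 lists, at 2.61, and 11 were separated. Msmb, beta-microseminoprotein of the prostatic fluid, was at 11.88 and 11.80 in luminal and at 4.49 and 9.23 in basal cells. The basal libraries thus differed from each other by more than the basal library of mouse 5 did from the luminal ones, and the difference was 7.40 between mice 4 and 3 but 2.56 within mouse 5. Rnase1, a secreted ribonuclease, had closer basal values, at 9.32 and 10.85 against 5.05 and 6.06 (4.53 ± 0.62, adjusted p = 0.119). Cdcp3 was at 9.85 and 9.81 against 4.50 and 6.45, and Fgl1, a fibrinogen-like secreted protein, at 9.48 and 8.03 against 4.52 and 6.06. Azgp1, a secreted zinc-binding glycoprotein, was at 7.46 and 8.40 against 4.18 and 5.39, and is named for its promoter after its values were seen. Folh1, the mouse gene of prostate-specific membrane antigen, was the exception, at 2.96 and 3.38 against 3.08 and 3.26, and is named here after its values were seen.

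Secretory transcripts were higher in the basal library of mouse 5 than in that of mouse 3. The list mean was 8.83 and 9.16 in luminal cells, 5.61 in basal cells of mouse 3 and 7.17 in basal cells of mouse 5. The median difference was accordingly 3.78 without the basal library of mouse 5 and 1.56 without that of mouse 3. Genes of seminal vesicle proteins, a gland outside the prostate, showed this more sharply. All 9 of 9 tested were on the luminal side (median 2.26), but their mean was 7.64 in basal cells of mouse 3 and 10.42 in basal cells of mouse 5, against 11.68 and 11.37 in luminal cells. Pate14 alone was separated. The median was 4.01 without the basal library of mouse 5 and 0.79 without that of mouse 3.

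**Figure D3:**
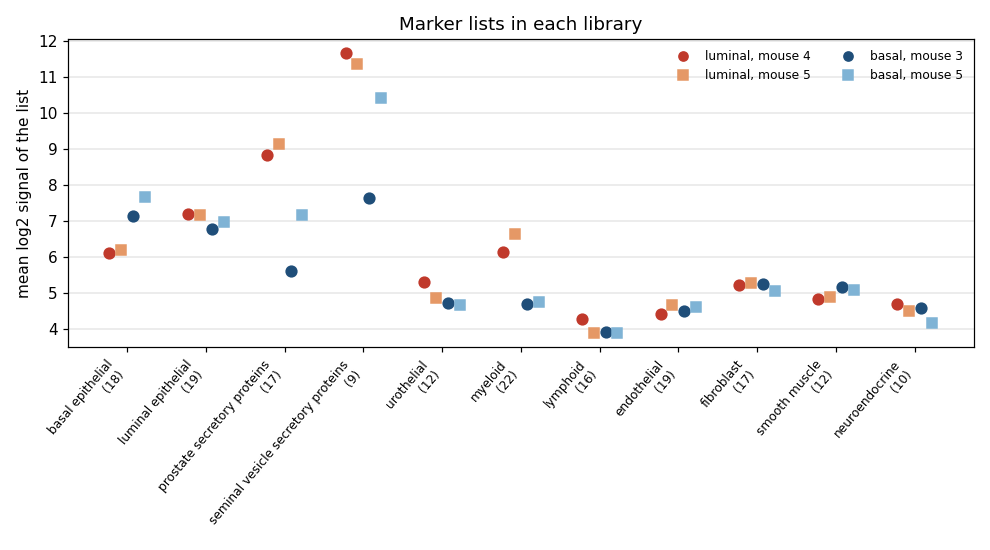
Mean log2 signal (y axis) of the tested members of each marker list (x axis, number tested in brackets) in the 4 libraries, in the colours and symbols given in the key. The basal, secretory and myeloid lists divide the luminal from the basal libraries, the lymphoid, endothelial and fibroblast lists do not, and the seminal vesicle list is low only in basal cells of mouse 3, at 7.64.

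Classical luminal identity genes divided the groups less than secretory genes did. Of 19 luminal epithelial genes, 11 were on the luminal side, near the share of all genes tested (10229 of 19012). The list median was 0.38, and 0.08 without the luminal library of mouse 5. At an unadjusted p under 0.05 (limma), 6 were higher in luminal and 4 in basal cells. The 3 separated genes were all higher in luminal cells. The tetraspanin Tspan1 was at 7.44 and 7.11 against 4.73 and 4.66. The peptidase Dpp4 was at 6.16 and 5.40 against 3.47 and 3.53, and the tight junction protein Cldn3 at 7.45 and 7.37 against 5.91 and 5.89. Their adjusted p were 0.0872, 0.125 and 0.127 (limma). The simple keratins, named after their values were seen, were not on this side. Krt8 was at 10.18 and 10.07 in luminal and 10.06 and 10.53 in basal cells, and Krt18 at 10.82 and 10.31 against 11.21 and 11.60. Epcam, a pan-epithelial adhesion molecule likewise named after its values were seen, overlapped as well, at 9.74 and 9.87 against 9.51 and 10.28.

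Some genes of the barrier and defence lists also had higher signals in luminal cells, while others went the other way. Of 17 tight and gap junction genes, 2 were separated to the luminal side, Cldn8 and Cldn3, and 1 to the basal side, Gja1 (median -0.02). At an unadjusted p under 0.05 (limma), 2 of the 17 were higher in luminal and 4 in basal cells. The claudin genes Cldn1 and Cldn4, named after their values were seen, had higher signals in basal cells. Cldn1 was at 10.39 and 11.03 against 12.09 and 11.98, and Cldn4 at 11.74 and 11.67 against 12.36 and 12.37. Of 17 mucosal defence genes, 3 were separated, all to the luminal side. The median of this list was 0.38, but -0.01 without the luminal library of mouse 4 and 0.01 without the basal library of mouse 5. Cldn8, a claudin of tight junctions, was at 5.97 and 7.28 against 3.39 and 3.72 (3.07 ± 0.48). Upk1a, a plaque protein of the urothelium, was at 9.57 and 9.36 against 6.43 and 4.83, while the median of the 12 urothelial genes was 0.02 and no other was separated. Defb42, a beta-defensin, an antimicrobial peptide, was at 8.57 and 9.77 against 3.23 and 4.48 (5.32 ± 0.59, adjusted p = 0.0913). Defb1 differed by 1.59 ± 0.26, and Lyz2, a lysozyme of macrophages that the defence list also holds, by 4.44 ± 0.70. Mmp7, a matrix metalloproteinase of secretory epithelia, was at 10.80 and 10.04 against 5.39 and 7.37, while its second, dim probe set gave a difference of -0.08.

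On the basal side, the genes with the smallest p came from several families. S100a13, a calcium-binding protein that takes part in release of growth factors, was at 4.11 and 4.12 in luminal and 7.52 and 7.11 in basal cells (-3.20 ± 0.26, adjusted p = 0.0872, limma). Serpinb2, an inhibitor of the urokinase-type plasminogen activator, was at 5.47 and 5.16 against 8.59 and 9.10. Actn1, an actin crosslinker at adhesion sites, was at 6.79 and 6.90 against 9.91 and 9.59, and Gja1, a connexin of gap junctions, at 6.41 and 6.37 against 8.91 and 8.84. The transcriptional cofactor gene Lbh was at 5.06 and 4.98 against 9.89 and 8.91. The others were the mitochondrial translation factor Ptcd3 (-3.02 ± 0.25), the RNA methylation partner Cbll1 (-2.76 ± 0.24), the mRNA export factor Rae1 (-3.15 ± 0.28), the ribosome assembly factor Rsl24d1 (-2.96 ± 0.27), Snord43, a small nucleolar RNA (-2.98 ± 0.28), and the ribosomal pseudogene Rps12-ps24 (-5.58 ± 0.52). Parp8 differed by -4.01 ± 0.35. All 12 had an adjusted p of 0.0872. Second probe sets gave smaller differences for Ptcd3 (-1.45) and Rsl24d1 (-0.58). Probes for a pseudogene can take signal from its parent gene, which was not tested.

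Promoter sequences from RefSeq (GRCm38.p6) are shown for 5 of these genes, as the stretch of 250 bases before the start: 3 from the luminal side, of macrophage, cytokine and secretory genes, and 2 from the basal side. Capitals mark matches, on either strand, to AP-1 (TGANTCA), a PU.1-type ETS site (GAGGAAGT) or a TATA box (TATAAA). No marked match overlaps another.
Cd68, chr11:69666171-69666420, minus strand: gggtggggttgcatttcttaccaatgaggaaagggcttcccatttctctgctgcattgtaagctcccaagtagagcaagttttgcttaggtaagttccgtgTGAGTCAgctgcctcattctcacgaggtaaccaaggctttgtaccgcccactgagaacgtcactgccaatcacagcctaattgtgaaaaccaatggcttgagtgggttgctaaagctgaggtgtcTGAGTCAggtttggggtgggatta
Il1b, chr2:129371140-129371389, minus strand: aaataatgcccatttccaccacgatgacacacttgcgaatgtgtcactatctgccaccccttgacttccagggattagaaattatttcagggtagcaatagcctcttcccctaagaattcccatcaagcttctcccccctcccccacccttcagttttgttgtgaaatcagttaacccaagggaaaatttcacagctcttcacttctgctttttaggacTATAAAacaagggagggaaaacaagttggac
Azgp1, chr5:137981271-137981520, plus strand: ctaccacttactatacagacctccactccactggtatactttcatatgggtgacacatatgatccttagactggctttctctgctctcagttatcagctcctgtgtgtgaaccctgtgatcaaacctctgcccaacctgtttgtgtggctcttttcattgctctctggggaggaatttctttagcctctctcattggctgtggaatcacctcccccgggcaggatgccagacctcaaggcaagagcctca
Serpinb2, chr1:107511173-107511422, plus strand: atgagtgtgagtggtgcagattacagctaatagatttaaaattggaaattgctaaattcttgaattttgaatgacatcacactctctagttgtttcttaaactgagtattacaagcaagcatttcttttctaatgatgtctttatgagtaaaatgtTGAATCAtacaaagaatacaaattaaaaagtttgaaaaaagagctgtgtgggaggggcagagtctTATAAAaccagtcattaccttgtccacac
Gja1, chr10:56377050-56377299, plus strand: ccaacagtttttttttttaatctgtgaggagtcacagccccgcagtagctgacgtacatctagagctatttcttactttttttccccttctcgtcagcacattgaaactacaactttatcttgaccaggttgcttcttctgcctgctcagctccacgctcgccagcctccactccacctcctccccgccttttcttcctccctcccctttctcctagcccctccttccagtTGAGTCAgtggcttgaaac
Cd68 held 2 AP-1 matches, Il1b a TATA box, Serpinb2 an AP-1 match and a TATA box, and Gja1 an AP-1 match, and the window of Azgp1 held none of the letters searched. AP-1 letters were in 5.7% of 14680 promoters of genes tested, in 8.16% of 147 of luminal-separated genes and in 6.69% of 299 of basal-separated genes. PU.1-type letters were in 2.25%, 6.8% and 3.68% of the same sets, and TATA boxes in 9.68%, 13.6% and 8.03%. A match is a description of sequence and not a bound site.

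Basal identity genes were on the basal side in 17 of 18 cases (median -1.49, and -0.87 without the basal library of mouse 5), and 9 were separated. Itga3, a laminin-binding integrin, was at 7.11 and 8.99 in luminal and 10.32 and 10.71 in basal cells. Cdh3, or P-cadherin, was at 4.75 and 4.24 against 6.58 and 6.88 (-2.24 ± 0.29, adjusted p = 0.112), and the growth factor receptor Egfr at 7.06 and 7.16 against 8.65 and 9.96. Krt15 was at 9.18 and 9.72 against 11.44 and 11.73. Krt14 and Krt17, named after their values were seen, were separated too, at 9.87 and 10.31 against 11.65 and 11.69 and at 10.48 and 11.18 against 12.42 and 12.51. Keratin probes can take signal from related keratins, which was not tested. Trp63, the transcription factor that marks basal cells and also named after its values were seen, did not divide the groups, at 4.81 and 4.78 against 4.79 and 5.07.

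Genes of attachment to the basement membrane and to neighbouring cells lay on the same side. Of 22 hemidesmosome, laminin and desmosome genes, 20 were higher on average in basal cells (median -0.65) and 3 were separated. These were the desmosomal linker Dsp, at 6.85 and 6.75 against 8.35 and 9.27, the hemidesmosome collagen Col17a1, at 5.83 and 6.04 against 7.56 and 8.15, and Itga6, whose protein was part of the gates. The list shares Itga6, Col17a1 and other members with the basal list. Itgb1, a partner of many integrin alpha chains, was at 8.60 and 8.70 against 10.22 and 10.19 (-1.55 ± 0.23).

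None of the separated members of the lists for EGF and FGF, Notch, and stem and progenitor factors was higher in luminal cells. Among 21 EGF and FGF genes 5 were separated: Fgfbp1, a carrier that frees fibroblast growth factors from the matrix, at 6.05 and 7.16 against 8.99 and 9.93, the receptors Fgfr2 and Egfr, and the ligands Epgn and Hbegf, the last named outside the rule. Fgfr2 was at 3.56 and 3.48 against 4.95 and 6.76. The Notch ligand Jag1 was at 4.68 and 6.07 against 7.75 and 8.06, the only separated gene of 17 in its list (median -0.13). Of the stem and progenitor list, Aldh1a1, a retinaldehyde dehydrogenase, was at 4.13 and 5.58 against 8.24 and 7.98, while the R-spondin receptor gene Lgr4 was at 4.61 and 4.31 against 5.85 and 6.18. The median of this list of 16 genes was -0.62, and -0.40 without the basal library of mouse 5. No Wnt gene of 20 was separated, the largest differences being -0.84 ± 0.32 for the co-receptor Lrp5 and 0.65 ± 0.24 for Tcf7l2.

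Of 16 extracellular proteolysis genes, 1 was separated to the luminal side, Mmp7 above, and 2 to the basal side, Serpinb2 above and Plaur. Plaur, the urokinase receptor, was at 7.81 and 8.64 in luminal and 10.51 and 10.81 in basal cells. Squamous differentiation genes had a median of -0.02, but 5 of 21 were separated and higher in basal cells. Ivl, or involucrin of the cornified envelope, was at 5.30 and 4.61 against 7.20 and 8.94. The stress keratin genes Krt16 and Krt6a were at 6.32 and 6.95 against 9.82 and 8.57 and at 4.80 and 4.66 against 7.62 and 6.35, and the epithelial serpin gene Serpinb5 at 7.58 and 6.14 against 9.47 and 9.33.

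Proximal luminal progenitor genes, among which Ly6d is counted, did not lie on the luminal side. Of 12 tested, 4 were higher on average in luminal and 8 in basal cells (median -0.15). Cp, the copper oxidase ceruloplasmin, was the only separated member, at 5.82 and 7.46 against 8.88 and 9.65. Without the basal library of mouse 3 the median was -0.56.

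Protein folding, sterol and stress genes were read from further lists. Genes of the endoplasmic reticulum and the unfolded protein response were on the luminal side in 17 of 19 cases (median 0.57), with 1 separated gene, the co-chaperone Dnajc3, at 10.65 and 10.38 against 8.19 and 9.24. Cholesterol synthesis genes were on the basal side in 13 of 16 cases (median -0.43, and -0.26 without the basal library of mouse 5). The sterol oxidase Msmo1 was at 5.15 and 4.43 against 8.19 and 7.11, and the sterol demethylase Cyp51 at 4.78 and 4.58 against 5.92 and 6.08. In the list for citrate, pyruvate and zinc handling (median 0.05), Pdk4, a kinase that restrains pyruvate oxidation, was the only separated gene of 21, at 8.18 and 5.71 against 9.21 and 10.07. Cryab, a small heat shock protein, was at 9.44 and 9.36 against 6.71 and 5.42 (3.34 ± 0.47, and 1.27 by a second probe set). The heat shock gene Hspa1a was at 11.93 and 11.60 against 7.16 and 10.14 (3.11 ± 0.97), a difference of 1.62 without the basal library of mouse 3. Hspa1b differed by 1.64 ± 0.24, and as near-identical copies they cannot be kept apart by signal alone. Ier3, an early response gene, was higher in basal cells (-1.68 ± 0.27).

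Other lists gave few separated genes. Cell cycle genes had a median of 0.07 with 0 of 21 separated, the largest differences being those of Ccnd1 (-0.93 ± 0.67) and Rrm2 (-0.86 ± 0.26). Ribosomal protein genes had a median of -0.34, with 13 of 17 on the basal side and 0 separated. For Rpl3 the kept probe set gave 1.63 ± 0.91, while its other probe sets gave -4.65 and 0.97. Endothelial genes had a median of 0.17 with 0 of 19 separated, with Fabp4 at 6.85 and 7.86 against 8.75 and 8.72. Fibroblast genes (0.03), smooth muscle genes (0.15) and neuroendocrine genes (0.08) each had 1 separated member. In the fibroblast list it was the matrix protein Postn, at 4.39 and 4.91 against 2.93 and 2.74, with both basal values under the lower quartile. Dcn, a brighter member of that list named after its values were seen, went the other way, at 10.03 and 10.34 against 11.54 and 11.12. The smooth muscle protein smoothelin, Smtn, was at 4.47 and 5.31 against 7.53 and 6.99. The neuroendocrine member Uchl1 was at 6.52 and 6.33 against 5.13 and 4.85. Second probe sets of Smtn and Uchl1 gave -0.42 and -0.06. The mean signal of the smooth muscle list was 4.84 and 4.89 in luminal and 5.18 and 5.10 in basal libraries, on the side opposite to its median. Of the erythroid list only 3 genes were tested, and none was separated.

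**Figure D4:**
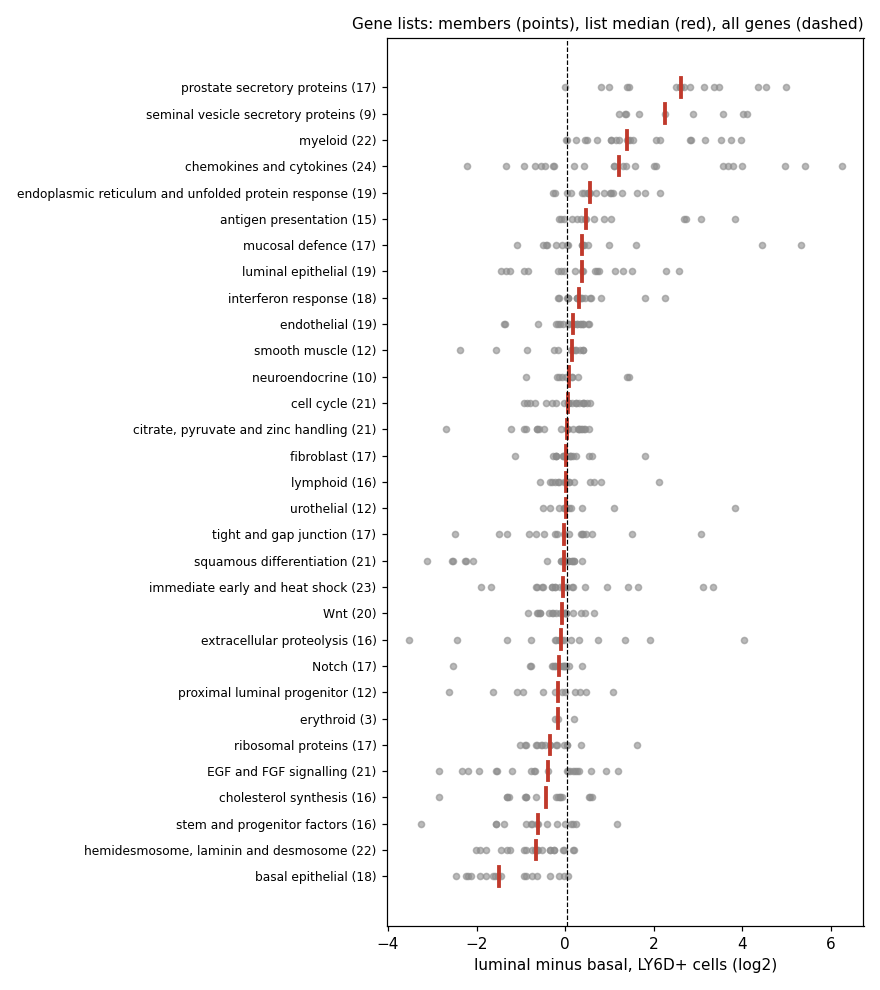
Luminal minus basal differences (x axis, log2) of the tested members (grey points) of the 31 gene lists (y axis, number tested in brackets), with each list's median as a red bar and the median of all genes, 0.03, as a dashed line. Secretory, seminal vesicle, myeloid and cytokine lists have the highest medians, 2.61, 2.26, 1.40 and 1.21, and the basal epithelial list the lowest, -1.49.

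Small RNA genes are given as counts by class. Of 55 small nucleolar RNA genes tested, 4 were separated and higher in basal cells (7.27%) and 1 higher in luminal cells, against 2.16% and 1.14% of 16619 protein-coding genes. The median of the small nucleolar RNA genes was 0.15, on the luminal side. Snora33 was at 4.81 and 5.08 against 9.56 and 8.47, Snora44 at 4.51 and 4.45 against 8.36 and 9.73, and Snora23 at 2.63 and 6.59 against 10.75 and 9.63. These RNAs guide chemical modification of ribosomal RNA. Of 275 microRNA genes, 4 were separated and higher in basal cells (1.45%, below the 1.97% of all genes tested) and 0 higher in luminal cells, and their median was 0.08. Mir17 was at 2.94 and 3.07 against 5.37 and 7.23, Mir18 at 3.40 and 3.48 against 5.72 and 6.71, Mir1191 at 5.59 and 5.70 against 8.65 and 8.05, and Mir186 at 2.68 and 2.77 against 9.83 and 4.13. For Mir186 the separation thus rests on unlike basal values, and both its luminal values lay under the lower quartile. The array reads the transcript of the microRNA gene, which need not follow the mature form. Mature sequences of these genes come from RefSeq (GRCm38.p6), with entries on 1 chromosome left out. They are shown for the 5′ arm or the only arm among the entries used, with the seed (bases 2 to 8) in capitals.
mmu-miR-186-5p: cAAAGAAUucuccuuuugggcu
mmu-miR-1191a: cAGUCUUAcuauguagcccua
mmu-miR-17-5p: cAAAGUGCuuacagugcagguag
mmu-miR-18a-5p: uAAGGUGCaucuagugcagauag
No seed was shared among the 4. Mir17 and Mir18 belong to a single microRNA cluster, and these small RNA genes were named after their values were seen.

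With all 12 arrays in the model, which takes the spread from the 6 groups of the series, the same differences gave 6 calls at an adjusted p under 0.05 (limma). They were Mxi1 (adjusted p = 0.0126), Ifnb1 (0.0327), Snora33 (0.0327), Defb42 (0.0404), Mir1191 (0.0404) and Pcdh7 (0.0485), with 3 higher in each group. The model behind these 6 calls took the 12 arrays as independent, although each mouse of the series gave libraries to more than a single group. Ifnb1 and Pcdh7 were named after their values were seen. Ifnb1, interferon beta, was at 4.94 and 6.05 in luminal and 2.31 and 2.22 in basal cells, under the lower quartile. Pcdh7, a protocadherin, was at 3.09 and 2.88 against 5.83 and 6.38. With mouse as a random replicate block in that model there were 7 calls, the same 6 and Cd86. With mouse as a fixed block there were 35. These held Mxi1, Ifnb1, Defb42, Pcdh7 and Cd86, but not Snora33 or Mir1191.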

How the data were processed

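Per the labels, RNA of the sorted cells was purified on columns and amplified with NuGEN Ovation V2 before hybridisation. Each deposited value is a log2 signal of 1 probe set on 1 array. RMA and oligo appear in the submitters' processing notes, whose settings are not given in the sources used here. The values were used without further scaling. Of 41345 probe sets, 23521 had a single gene symbol, 1814 several and 16010 were not in the annotation used. The brightest probe set over the 4 arrays stood for each of 22180 genes, and 19012 were tested, with at least 2 arrays above the lower quartile (2.96). Fits used limma 3.58.1 in R 4.3.3 on the 4 arrays, with 2 residual degrees of freedom (3.02 in the prior) and p-values adjusted after Benjamini-Hochberg over all genes, and were tested on simulated data. The p-values measure the spread between these arrays, whose number limits the precision.

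Genes were named by rule: the sort genes, the 12 with the smallest p each way among genes whose groups did not overlap, since none passed, and per list up to 4 separated members, largest first, or in their absence the 2 with the largest absolute difference. Additions are marked in the text. The comparison, the 31 lists and these rules were chosen with earlier results of these data known, so that list counts and medians are descriptions. Of 574 listed genes 512 were tested. Alternatives changed the filter, scaling, probe set choice, prior, arrays in the model, mouse block and libraries.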

Additional observations from a re-analysis of the deposited data

How the results depend on the processing

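The count of 0 genes at an adjusted p under 0.05 held under both other filters, median centring, repeated quantile normalization, averaged probe sets, a prior with trend and without any single library. Its range without single libraries was 0 to 0. It was 6 with the spread of all 12 arrays, 7 with mouse as a random replicate block and 35 with mouse as a fixed replicate block. Genes higher in basal cells at an unadjusted p under 0.05 numbered 631 with the spread of 12 arrays, and 765 to 1785 without single libraries, the highest being without basal cells of mouse 3. Separated genes numbered 307 to 543 (luminal) and 581 to 1405 (basal) without single libraries, and 887 and 1972 within mouse 5, where fewer arrays have to be apart. The number of lists with a median at least 0.5 from 0 was 8, and 7 to 11 under alternatives. Without a single library the medians changed sign for the citrate, erythroid, proteolysis, fibroblast, lymphoid, mucosal defence, neuroendocrine, smooth muscle, squamous and tight junction lists. Of 89 named genes, 85 kept their side under all 14 alternatives. The exceptions were Rpl3 (-0.69 with averaged probe sets), Pecam1 (0.028 within mouse 5), Slc4a1 (-0.14 to 0.52 without single libraries, negative without luminal cells of mouse 5) and Ccnd1 (-1.93 to 0.0683 without single libraries, positive without basal cells of mouse 5). A library left alone in its group was assumed to vary like the other group. No paired analysis was possible because the 2 groups share only mouse 5; the blocks above use the other 8 arrays too. Scanner signals and background were not used here, so that the lowest signals have no detection limit.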
